A study of Homo sapiens with 20 samples.

Results

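DOHH2, a human cell line that the labels class as diffuse large B-cell lymphoma (a cancer of mature B lymphocytes), was compared after 18 h with the compound labelled TK and after 18 h with DMSO, the solvent used as control. The libraries were chosen by their labels: 3 TK libraries (replicates 1, 2 and 3) and 2 DMSO libraries (replicates 1 and 3), which are 5 of the 20 libraries of the series. The other libraries hold the 8 h samples of DOHH2 (3 with TK, 3 with DMSO) and those of a second line, U2932. No dose, no fuller name of TK and no genetic change of the cells is given in the labels, and the levels and changes below are those of 1 line. The spread behind the tests was estimated over all 20 libraries of both lines. Nothing in the labels ties the replicates to independent cultures, so the p-values measure only the variation between libraries, which could be technical. Polyadenylated RNA was sequenced, and reads were counted per gene.

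The 5 libraries held 30363255 to 52275430 counts in genes, with 19717 to 23002 genes detected. TK replicate 1 stood apart. Reads that aligned to several places made up 56.6% of all its counts and 26.5 to 27.4% of those of the remaining 4 libraries. Its log2 levels correlated with those of the other libraries at 0.9589 to 0.9691 across genes, while TK replicates 2 and 3 correlated at 0.9955 and the DMSO libraries at 0.9951. Results were therefore also computed without it. B cell markers were present in all 5 libraries, with CD79A, a signalling chain of the B cell receptor, at 331 to 408 CPM (counts relative to the library total, scaled between libraries). Of the germinal centre markers, MME reached 27.5 to 53.8 CPM, whereas BCL6, the repressor that defines that stage, was at 0 to 0.183 CPM, and CXCR5 at 0 to 0.0916 CPM. Markers of other cell types were near 0: those of T and NK cells summed to 0.881 to 1.36 CPM (CD3D at 0) over 12 genes, and those of monocytes to 0.647 to 1.13 CPM (MPO at 0) over 9 genes. Those of erythroid cells and platelets summed to 0.0305 to 0.264 CPM (HBA2 and PF4 among those at 0) over 8 genes, and those of stromal, endothelial and epithelial cells to 7.28 to 14.8 CPM over 11 genes, of which COL1A1, a collagen, made up 4.96 to 10.3 CPM.

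p53 is a transcription factor that damage or stress stabilises at the level of protein, mostly by release from the ubiquitin ligase MDM2. It then switches on genes that stop the cell cycle, slow growth, repair DNA or kill the cell, and MDM2 is itself a target, so that the response limits itself. In lymphoma lines with functional p53 this programme is a common route by which drugs stop growth.

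After 18 h with TK, 11 genes rose and 1 fell among the 16478 genes tested (edgeR's quasi-likelihood test, Benjamini-Hochberg adjusted p under 0.05), which is 0.0728% of them, 0.0668% higher and 0.00607% lower. The rises were H1F0, MDM2, SESN1, CYP4F3, MIR3142HG, NEAT1, HIST2H2BE, MIR34AHG, PNRC1, EDA2R and HIST1H2BJ, and the fall was TMEM238. Known p53 targets (MDM2, SESN1, EDA2R and the host transcript of miR-34a) account for 4 of the 12, 3 are histone genes, and 3 are long noncoding transcripts, MIR34AHG being counted under both headings. At an unadjusted p under 0.05, 741 genes were higher (4.5%) and 670 lower (4.07%), together 8.56%. The TK and DMSO libraries did not overlap in 1954 genes with TK higher (11.9%) and in 2168 with TK lower (13.2%). The calls rest on the pair of DMSO libraries: without DMSO replicate 1 only MDM2 and H1F0 passed the threshold, without DMSO replicate 3 only CYP4F3, and 0 genes passed when the 5 libraries were fitted alone (1094 at an unadjusted p under 0.05, edgeR). Over all genes the median log2 change was 0.016, and 52.9% of genes had a positive one.

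**Figure D1:**
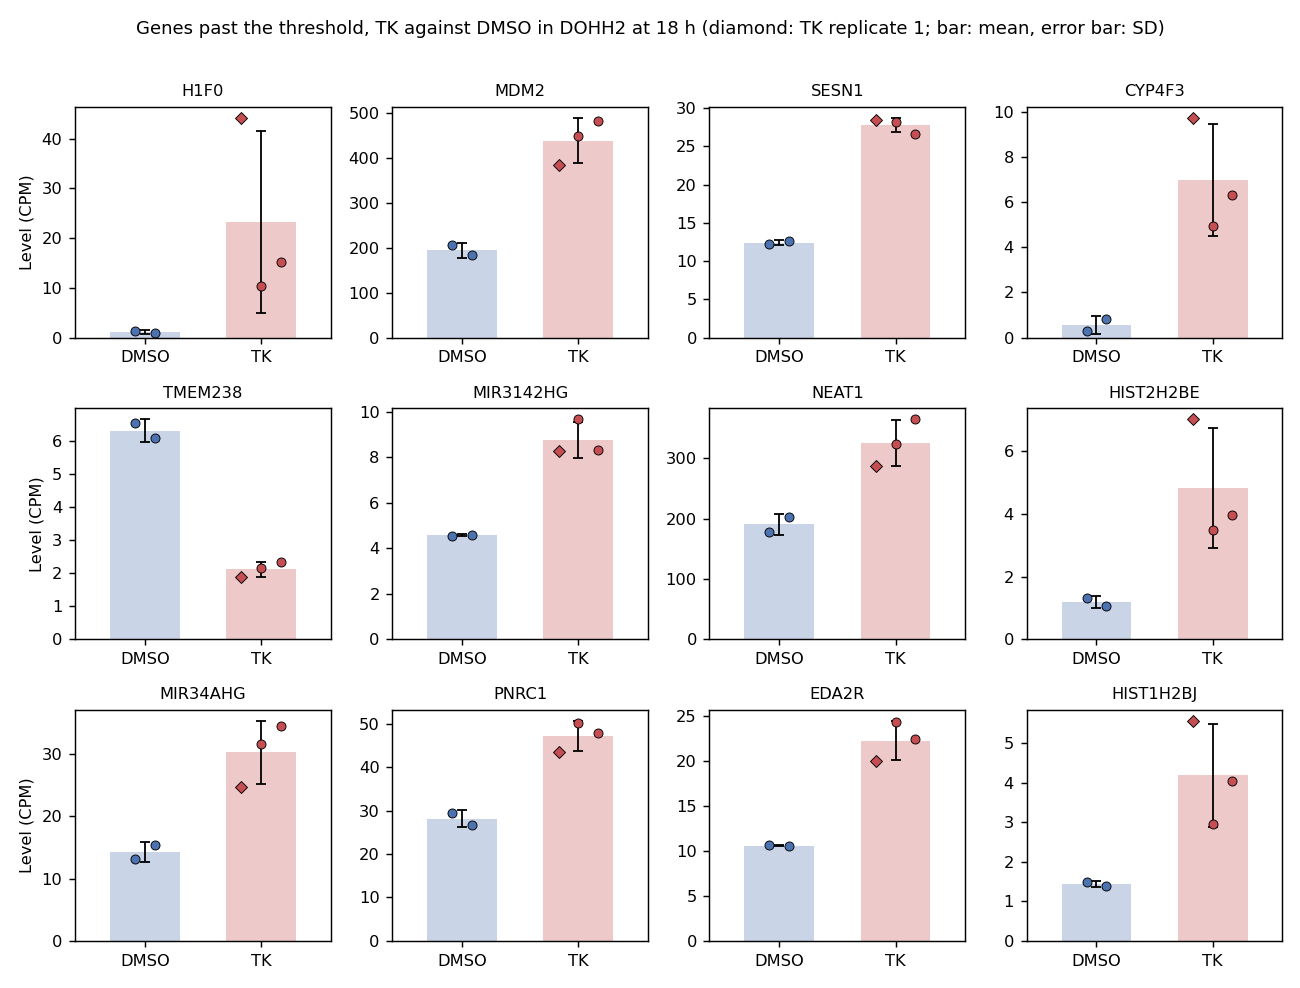
Level in CPM (vertical axes, each from 0) of the 12 genes past the threshold in the 2 DMSO and 3 TK libraries of DOHH2 at 18 h. Points are libraries (the diamond is TK replicate 1), bars are group means and error bars are SD. In every panel all TK libraries lie on one side of both DMSO libraries, and in the panels of H1F0, CYP4F3, HIST2H2BE and HIST1H2BJ TK replicate 1 is the highest library.

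**Figure D2:**
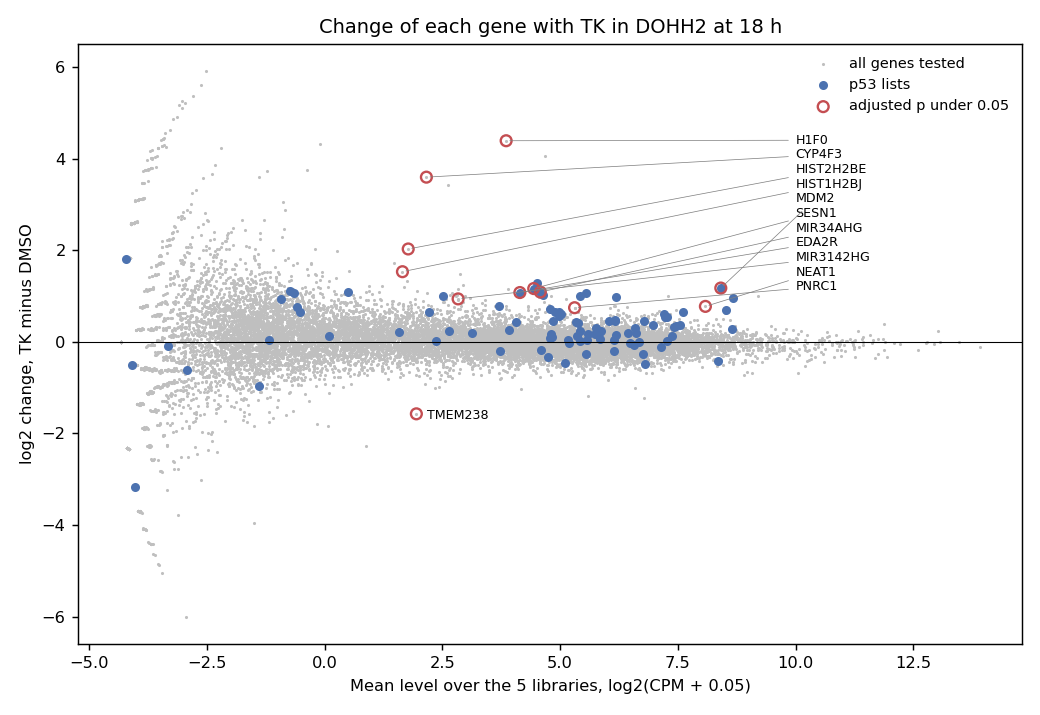
The log2 change with TK (vertical axis) against the mean level over the 5 libraries as log2(CPM + 0.05) (horizontal axis) for 16478 genes. Blue points are the tested genes of the p53 lists, and red circles the 12 genes past the threshold, 11 of them above 0. Genes of low level scatter widely.

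MDM2 is the ubiquitin ligase that marks p53 for destruction. Its level was 206 and 183 CPM in the DMSO libraries (replicates 1 and 3) and 383, 449 and 482 CPM in the TK libraries (replicates 1, 2 and 3). Every TK library was above both DMSO libraries, and MDM2 (chromosome 12, 68808176 to 68850686, GRCh38) rose by a log2 change of 1.17 (SE 0.147, adjusted p = 0.000641), a 2.25-fold difference. Of the 12 genes of the feedback loop, MDM2 included, the groups were apart with TK higher in 5 (41.7%, against 11.9% of all genes). They were apart with TK lower in 1 (8.33%, against 13.2%) and overlapped in 6. Only MDM2 passed the threshold, and 3 members with values in its direction follow. ZMAT3, an RNA-binding protein, was at 27.2 and 26.8 CPM with DMSO and at 42.7, 62.5 and 56 CPM with TK. TP53INP1, a p53 cofactor, was at 39.2 and 52.8 CPM against 62.4, 105 and 104 CPM. PPM1D, the phosphatase that switches off p53, was at 23.9 and 23 CPM against 32.1, 31.7 and 32.5 CPM. In all 3 genes the groups were apart, with log2 changes of 0.99 for ZMAT3 (adjusted p = 0.168), 0.97 for TP53INP1 (adjusted p = 0.339) and 0.45 for PPM1D (adjusted p = 0.284), by edgeR. TP73, a p53 relative, was at 41.2 and 41.7 CPM with DMSO and at 40.4, 26 and 23.2 CPM with TK (log2 change -0.47, adjusted p = 0.594).

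The promoter windows of RefSeq (250 bases before to 50 after each start, GRCh38.p14) were searched for the p53 response element, on both strands, as 20 bases without a spacer and with up to 2 mismatches outside its fixed C and G bases. That limit was set after the matches had been seen. A match was found in 0.359% of the 27305 genes with a window and in 8 of the 73 tested p53-list genes with one (MDM2, TP73, FAS, AEN, GLS2, PANK1, GPX1 and DDB2). The windows of 4 of them are printed to set matches of like length beside unlike changes, with the 20 bases of the match in capitals and up to 20 bases on either side, each 5′ to 3′ on the strand of its gene.
MDM2 (chr12:68808903-68808962, plus strand, the match starting at position -94 from the RefSeq start, inside the span of the gene): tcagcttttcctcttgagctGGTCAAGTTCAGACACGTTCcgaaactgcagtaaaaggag
FAS (chr10:88991289-88991348, plus strand, from -122): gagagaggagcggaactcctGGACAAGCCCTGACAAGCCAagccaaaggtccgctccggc
AEN (chr15:88621286-88621339, plus strand, from -34): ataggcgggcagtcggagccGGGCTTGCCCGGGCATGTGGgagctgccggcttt
TP73 (chr1:3690576-3690635, plus strand, from -76): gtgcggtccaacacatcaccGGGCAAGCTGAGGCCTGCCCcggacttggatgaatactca
The log2 changes of the 8 genes were 1.17 for MDM2, 0.66 for FAS, 0.33 for AEN, 0.23 for DDB2, -0.10 for GLS2, -0.20 for PANK1, -0.47 for TP73 and -0.49 for GPX1. Matches thus stood in windows of genes with positive and with negative changes. A match is a description of the letters and not evidence of binding.

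SESN1 encodes a sestrin, which restrains the growth kinase mTORC1. Its level was 12.2 and 12.7 CPM with DMSO and 28.4, 28.2 and 26.7 CPM with TK, so that TK replicate 1 lay beside the other TK libraries. SESN1 (chromosome 6, 108986437 to 109094819) rose by 1.16 on the log2 scale (SE 0.146, adjusted p = 0.000641). EDA2R, a death-domain receptor of the TNF receptor family, was at 10.7 and 10.5 CPM with DMSO and at 20.1, 24.4 and 22.5 CPM with TK. EDA2R (chromosome X, 66595637 to 66639298) rose 2.11-fold (SE of the log2 change 0.194, adjusted p = 0.0403). MIR34AHG, the primary transcript of miR-34a, a microRNA that p53 induces and that lowers cell cycle proteins, was at 13.1 and 15.4 CPM against 24.7, 31.5 and 34.5 CPM. It lies at chromosome 1, 9148011 to 9198906, and rose 2.12-fold (SE of the log2 change 0.196, adjusted p = 0.0356).

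Among the targets that stop the cell cycle, none of the 9 tested passed the threshold, and 4 had an unadjusted p under 0.05, all higher (44.4%, against 4.5% of all genes). Their median log2 change was 0.296, and 0.0935 without TK replicate 1. CDKN1A, the inhibitor p21 of cyclin-dependent kinases, was at 278 and 240 CPM with DMSO and at 691, 391 and 432 CPM with TK (log2 change 0.96, adjusted p = 0.252). The groups did not overlap, and TK replicate 1 was far above the other TK libraries. BTG2, which slows proliferation, was at 264 and 273 CPM against 474, 407 and 416 CPM (log2 change 0.69, adjusted p = 0.264).

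Targets linked to cell death, a decoy receptor among them, had a median log2 change of 0.53 over 17 tested genes. It was the same to 2 decimals without TK replicate 1 and 0.241 with the 8 h DMSO libraries added to the control. The groups were apart with TK higher in 10 of the 17 (58.8%, against 11.9% of all genes) and apart with TK lower in 0, and 1 of the 17, EDA2R, passed the threshold. BBC3, the BH3-only protein PUMA that antagonises BCL2, was at 12.7 and 11.4 CPM with DMSO and at 41.1, 22.9 and 24.7 CPM with TK. Its log2 change of 1.29 missed the threshold (SE 0.255, adjusted p = 0.0594). The decoy receptor of TRAIL, TNFRSF10D, was at 13.9 and 16.4 CPM against 28.7, 30.7 and 33.6 CPM. TNFRSF10B, a TRAIL death receptor, was at 139 and 153 CPM against 254, 216 and 220 CPM. The log2 changes of this pair were 1.03 for TNFRSF10D (0.483 with the larger control) and 0.66 for TNFRSF10B, both with adjusted p = 0.167. FAS, the death receptor of FAS ligand, was at 22.2 and 24.2 CPM with DMSO and at 27.9, 43.5 and 38.2 CPM with TK. Its log2 change of 0.66 was 0.134 with the larger control. BAX, the effector that opens the outer mitochondrial membrane, was at 153 and 152 CPM against 224, 172 and 182 CPM (log2 change 0.34, adjusted p = 0.646, and 0.218 without TK replicate 1).

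Of the 16 targets in metabolism and stress defence, 1 (SESN1) passed the threshold, and the groups were apart in 9 with TK higher (56.2%, against 11.9% of all genes) and in 3 with TK lower (18.8%, against 13.2%). SESN2, another sestrin, was at 28.6 and 27.9 CPM with DMSO and at 83.8, 46.5 and 46.7 CPM with TK, just short of the threshold (log2 change 1.06, adjusted p = 0.0518). TIGAR, a phosphatase that diverts sugar from glycolysis, was at 22.4 and 21.6 CPM against 27.2, 37.7 and 38.5 CPM (log2 change 0.65, and 0.362 with the larger control). RRM2B, a p53-induced subunit of ribonucleotide reductase, was at 21.1 and 18.6 CPM against 25.7, 35.8 and 36.4 CPM. SESN2 was thus highest in TK replicate 1, and TIGAR and RRM2B were lowest there among the TK libraries. GPX1, a glutathione peroxidase, ran the other way, with 139 and 131 CPM with DMSO and 78.6, 108 and 101 CPM with TK (log2 change -0.49, adjusted p = 0.57).

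The 10 targets in DNA repair had a median log2 change of 0.098 (0.05 without TK replicate 2 and 0.266 with the larger control) and were apart in 3 genes in each direction (30% each, against 11.9% higher and 13.2% lower). XPC, which recognises damage, was at 51.8 and 55 CPM with DMSO and at 90.4, 63.3 and 66 CPM with TK (log2 change 0.46, and 0.275 without TK replicate 1). PCNA, the sliding clamp of DNA polymerases, was at 388 and 377 CPM against 210, 321 and 327 CPM (log2 change -0.42, adjusted p = 0.562, and -0.242 without TK replicate 1). Over all 91 tested genes of the p53 lists, 71 had a positive log2 change and 20 a negative one, with a median of 0.264 (0.215 without TK replicate 1, 0.0438 at 8 h). Of these, 34 were higher at an unadjusted p under 0.05 (37.4%) and 2 lower (2.2%), and 4 passed the adjusted threshold, all higher. DESeq2 called 12 of the p53-list genes, all higher, among 85 genes in all (0.672% of those with an adjusted p, 0.483% higher and 0.19% lower).

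The steepest rises were at low levels. H1F0, the linker histone of resting and differentiated cells, was at 1.37 and 0.863 CPM with DMSO and at 44.2, 10.5 and 15.1 CPM with TK. H1F0 (chromosome 22, 37805093 to 37807436) rose by 4.39 on the log2 scale (SE 0.515, adjusted p = 0.000641), and by 3.52 without TK replicate 1 (SE 0.33, adjusted p = 2.98e-05). HIST2H2BE, an H2B gene whose messenger can carry a poly(A) tail, was at 1.31 and 1.05 CPM against 7.01, 3.49 and 3.97 CPM. It lies at chromosome 1, 149884459 to 149886652, and rose 4.07-fold (SE of the log2 change 0.349, adjusted p = 0.0219). HIST1H2BJ was at 1.5 and 1.39 CPM against 5.56, 2.96 and 4.04 CPM. HIST1H2BJ (chromosome 6, 27125897 to 27132750) rose 2.89-fold (adjusted p = 0.0403), a call lost without TK replicate 1 (log2 change 1.27, adjusted p = 0.0916). Of 12 tested core histone genes whose messengers can carry a poly(A) tail, 8 were apart with TK higher (66.7%, against 11.9% of all genes) and 0 with TK lower, and 2 passed the threshold, with a median of 0.746 (0.518 without TK replicate 1). All 5 tested linker histone genes had positive changes, with a median of 0.873 that was 0.202 without TK replicate 1, where 3 of 5 were positive. Most histone messengers lack a poly(A) tail. Small RNAs without such a tail summed to 77.3 CPM in TK replicate 1 and to 12.3 and 20.9 CPM in TK replicates 2 and 3, against 42.1 and 31.3 CPM with DMSO, and their part in the histone values was not tested. Near-identical copies within the histone family make the assignment of reads to single members uncertain. The histone variants ran the other way: 7 of 8 had negative changes (median -0.307, and -0.166 with the larger control). H2AFX, the variant phosphorylated at DNA breaks, was at 189 and 204 CPM with DMSO and at 142, 135 and 128 CPM with TK.

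The promoters of both H2B genes past the threshold hold the octamer ATTTGCAT, the site of OCT transcription factors known from H2B promoters. The letters, searched on both strands of the same windows, stood in 7 of the 11 core histone genes with a window and in 2.19% of all genes with one. Sites of different motifs were counted separately and may overlap. Both windows are shown with the octamer in capitals, 5′ to 3′ on the strand of the gene.
HIST2H2BE (chr1:149886701-149886748, minus strand): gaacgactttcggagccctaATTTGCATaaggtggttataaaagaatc
HIST1H2BJ (chr6:27132815-27132862, minus strand): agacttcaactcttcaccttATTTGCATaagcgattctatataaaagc
The log2 changes of these genes were 2.03 and 1.53.

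CYP4F3 encodes a cytochrome P450 that hydroxylates leukotriene B4 and fatty acids. Its level was 0.275 and 0.839 CPM with DMSO and 9.73, 4.93 and 6.30 CPM with TK. All TK libraries were above both DMSO libraries, and CYP4F3 (chromosome 19, 15640897 to 15662825) rose 12.1-fold (log2 change 3.59, SE 0.419, adjusted p = 0.000837). Its neighbour in the family, CYP4F2, was at 0.122 and 0.0479 CPM against 2.03, 0.619 and 0.787 CPM (log2 change 3.74, adjusted p = 0.0905). The 2 genes are closely similar in sequence, so reads may be split between them. No other CYP4F gene of the 6 listed was high enough to be tested.

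The microRNA hosts and nuclear noncoding RNAs gave 3 of the 11 rises. NEAT1, the scaffold of paraspeckles, was at 178 and 203 CPM with DMSO and at 288, 324 and 365 CPM with TK. NEAT1 (chromosome 11, 65422774 to 65445540) rose 1.71-fold (adjusted p = 0.0219). MIR3142HG, the host transcript of miR-146a and miR-3142, was at 4.55 and 4.60 CPM against 8.26, 9.66 and 8.30 CPM. It lies at chromosome 5, 160438594 to 160487426, and rose 1.91-fold (adjusted p = 0.0219). The 19 listed noncoding transcripts did not move together, with 9 positive and 10 negative changes and a median of -0.00448. MALAT1, another abundant nuclear RNA, was at 293 and 253 CPM with DMSO and at 380, 441 and 446 CPM with TK (log2 change 0.63, adjusted p = 0.42). DANCR, a noncoding RNA that hosts small nucleolar RNAs, was at 191 and 179 CPM against 104, 123 and 135 CPM (log2 change -0.61, adjusted p = 0.0685).

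The mature microRNAs of both rising hosts are given from RefSeq (GRCh38.p14) with the seed, bases 2 to 8, in capitals. No 2 of them share a seed. The libraries measured the host transcripts and not the mature microRNAs.
miR-34a-5p (host MIR34AHG): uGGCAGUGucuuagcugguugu
miR-34a-3p (host MIR34AHG): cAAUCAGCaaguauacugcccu
miR-146a-5p (host MIR3142HG): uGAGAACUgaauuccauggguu
miR-146a-3p (host MIR3142HG): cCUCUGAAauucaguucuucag
miR-3142 (host MIR3142HG): aAGGCCUUucugaaccuucaga
One promoter window of MIR3142HG holds the NF-kB site of the immunoglobulin kappa enhancer, whose letters (either strand) were found in 0.227% of all genes with a window and in 4 of 24 genes of the NF-kB list. It is shown with the letters searched in capitals. The ETS core CCGGAAGT, searched in the same way, was in 4.95% of genes with a window and in 0 of the 10 genes past the threshold that have one. With 10 genes, that 0 says little. The octamer stood in 3 of these 10 genes, the NF-kB site in 1 and a p53 match in 1.
MIR3142HG (chr5:160468111-160468160, plus strand): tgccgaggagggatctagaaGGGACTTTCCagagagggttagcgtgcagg

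The remaining genes past the threshold were PNRC1 and TMEM238. PNRC1, a nuclear receptor coregulator, was at 29.5 and 26.8 CPM with DMSO and at 43.4, 50.2 and 47.8 CPM with TK. PNRC1 (chromosome 6, 89080751 to 89085160) rose 1.67-fold (adjusted p = 0.0397). TMEM238, a membrane protein of little-known function, was at 6.56 and 6.09 CPM against 1.88, 2.16 and 2.33 CPM. TMEM238 (chromosome 19, 55379245 to 55384598) fell by 1.57 on the log2 scale (SE 0.255, adjusted p = 0.0156), a 2.98-fold difference, and was the only gene of the 12 that was lower with TK.

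The 10 rises next in order of p among genes of at least 5 CPM with groups apart were SESN2, BBC3, CALCOCO1, KDM5B, KLHL24, BTG1, ATF3, TIGAR, PYHIN1 and PPP1R15A, with adjusted p of 0.0518 to 0.165. Of these, 3 are in the p53 lists. BTG1, which slows proliferation in B cells, was at 130 and 117 CPM with DMSO and at 191, 199 and 176 CPM with TK. KLHL24, an adaptor of a ubiquitin ligase, was at 16.9 and 18.2 CPM against 30.3, 38.1 and 36.4 CPM. The stress-induced transcription factor ATF3 was at 5.16 and 5.56 CPM against 12.6, 8.23 and 10.4 CPM. With the larger control the log2 changes were 0.272 for BTG1 and 0.606 for ATF3, from 0.611 and 0.955. The next 10 falls were CDCA4, BOLA2-SMG1P6, TLCD1, DANCR, SNHG10, PDXP, PAQR4, KLF2, PEG10 and SPIN4, with adjusted p of 0.0594 to 0.167. CDCA4, a target and regulator of E2F, was at 71.3 and 77.7 CPM with DMSO and at 44.1, 50.4 and 47.1 CPM with TK. KLF2, a quiescence factor of lymphocytes, was at 25.1 and 26.7 CPM against 14.6, 10.9 and 12.6 CPM (log2 change -1.03, and -0.376 with the larger control). Those of PEG10 and SPIN4 were -0.183 and -0.571 with that control, from -0.709 and -0.98. BOLA2-SMG1P6 shares sequence with duplicated copies, which makes its count uncertain.

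Genes of DNA replication had negative log2 changes throughout, in all 33 tested, with a median of -0.332 (-0.424 without TK replicate 1), and the groups were apart with TK lower in 25 (75.8%, against 13.2% of all genes). At an unadjusted p under 0.05, 11 were lower (33.3%, against 4.07%), and none passed the adjusted threshold. MCM4, a subunit of the replicative helicase, was at 560 and 557 CPM with DMSO and at 427, 386 and 401 CPM with TK. GINS1, a helicase cofactor, was at 58 and 56.3 CPM against 32.2, 42.9 and 44.1 CPM. ORC6, of the origin recognition complex, was at 73.7 and 72.1 CPM against 57.2, 55.6 and 56.6 CPM. The groups were apart in all 3, with log2 changes of -0.47 for MCM4, -0.53 for GINS1 and -0.37 for ORC6. In bulk RNA, fewer cells in S phase and less of these RNAs per cell cannot be told apart. With the 8 h DMSO libraries added to the control, the median of the list was -0.116 and the change of MCM4 was -0.228. The members summed to 7000 and 6723 CPM with DMSO at 18 h and to 6364, 4940 and 5140 CPM with TK. In the 6 DOHH2 libraries of 8 h they summed to 4327 to 6178 CPM, below both DMSO libraries of 18 h.

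In the list of mitotic cyclins, kinases and spindle genes, 29 of 30 changes were negative (median -0.293, -0.213 without TK replicate 1 and -0.0895 with the larger control). The groups were apart with TK lower in 14 (46.7%, against 13.2% of all genes). None passed the threshold and 2 were lower at an unadjusted p under 0.05 (6.67%, against 4.07%). UBE2C, the ubiquitin carrier of the anaphase-promoting complex, was at 157 and 135 CPM with DMSO and at 84.3, 95.6 and 93 CPM with TK. AURKB, the kinase of the chromosomal passenger complex, was at 101 and 100 CPM against 73.7, 64.7 and 61.8 CPM. CCNB1, the cyclin of mitotic entry, was at 174 and 145 CPM against 141, 143 and 165 CPM, where the groups overlapped (log2 change -0.09, and 0.04 without DMSO replicate 1). The list summed to 3906 and 3690 CPM with DMSO at 18 h and to 2954 to 3210 CPM with TK. Its sums at 8 h in DOHH2 were 2576 to 3798 CPM. At 8 h the same list had positive changes in 29 of 30 genes, with a median of 0.223. Whether the changes at the 2 times differ was tested gene by gene, and no member passed the threshold for that difference.

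Other lists of proliferation had the same sign. Of 22 genes of DNA repair, 19 had negative changes (median -0.219, and -0.06 with the larger control), and 11 were apart with TK lower (50%, against 13.2%). FANCA, of the Fanconi repair complex, was at 82.5 and 92.8 CPM with DMSO and at 64.1, 65 and 64.7 CPM with TK (log2 change -0.44, adjusted p = 0.224, and -0.249 with the larger control). Of 22 regulators of G1 and S phase, 15 had negative changes (median -0.197, -0.0774 without DMSO replicate 1 and -0.116 with the larger control). CDKN2C, an inhibitor of CDK4 and CDK6, was at 88.4 and 84.3 CPM against 70.2, 62.9 and 63.4 CPM. E2F8, a repressor of the E2F family, was at 51.3 and 60.3 CPM against 39.7, 42.2 and 37.4 CPM. Their log2 changes of -0.398 and -0.488 were -0.181 and -0.125 with the larger control. No member of either list passed the threshold, and the groups were apart in these 3 genes. The DNA repair list summed to 1667 and 1622 CPM with DMSO at 18 h and to 1286 to 1470 CPM with TK. At 8 h its sums in DOHH2 were 1005 to 1549 CPM. The G1 and S phase list summed to 1620 and 1543 CPM with DMSO at 18 h and to 1458 to 1487 CPM with TK. Its sums at 8 h were 1329 to 1591 CPM.

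Tubulins had a median of -0.279, which was -0.537 without TK replicate 1, -0.0363 without DMSO replicate 1 and -0.148 with the larger control. They summed to 3509 and 3328 CPM with DMSO at 18 h and to 2202 to 2325 CPM with TK. In DOHH2 at 8 h the tubulins summed to 2038 to 3202 CPM, below both DMSO libraries of 18 h. The most abundant members had negative changes. TUBA1B, an alpha-tubulin, was at 1412 and 1338 CPM with DMSO and at 862, 856 and 861 CPM with TK (log2 change -0.68, adjusted p = 0.264). TUBB, a beta-tubulin, was at 632 and 618 CPM against 371, 389 and 377 CPM (log2 change -0.72, adjusted p = 0.419). In both genes the 3 TK libraries lay close together and below the DMSO libraries, and with the larger control the changes were -0.419 and -0.282. TUBB2A, a minor beta-tubulin, was at 3.42 and 1.46 CPM against 5.74, 2.19 and 2.13 CPM, and its log2 change of 0.47 was -0.14 without TK replicate 1. Tubulin genes share long stretches of sequence, so single members are uncertain.

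**Figure D3:**
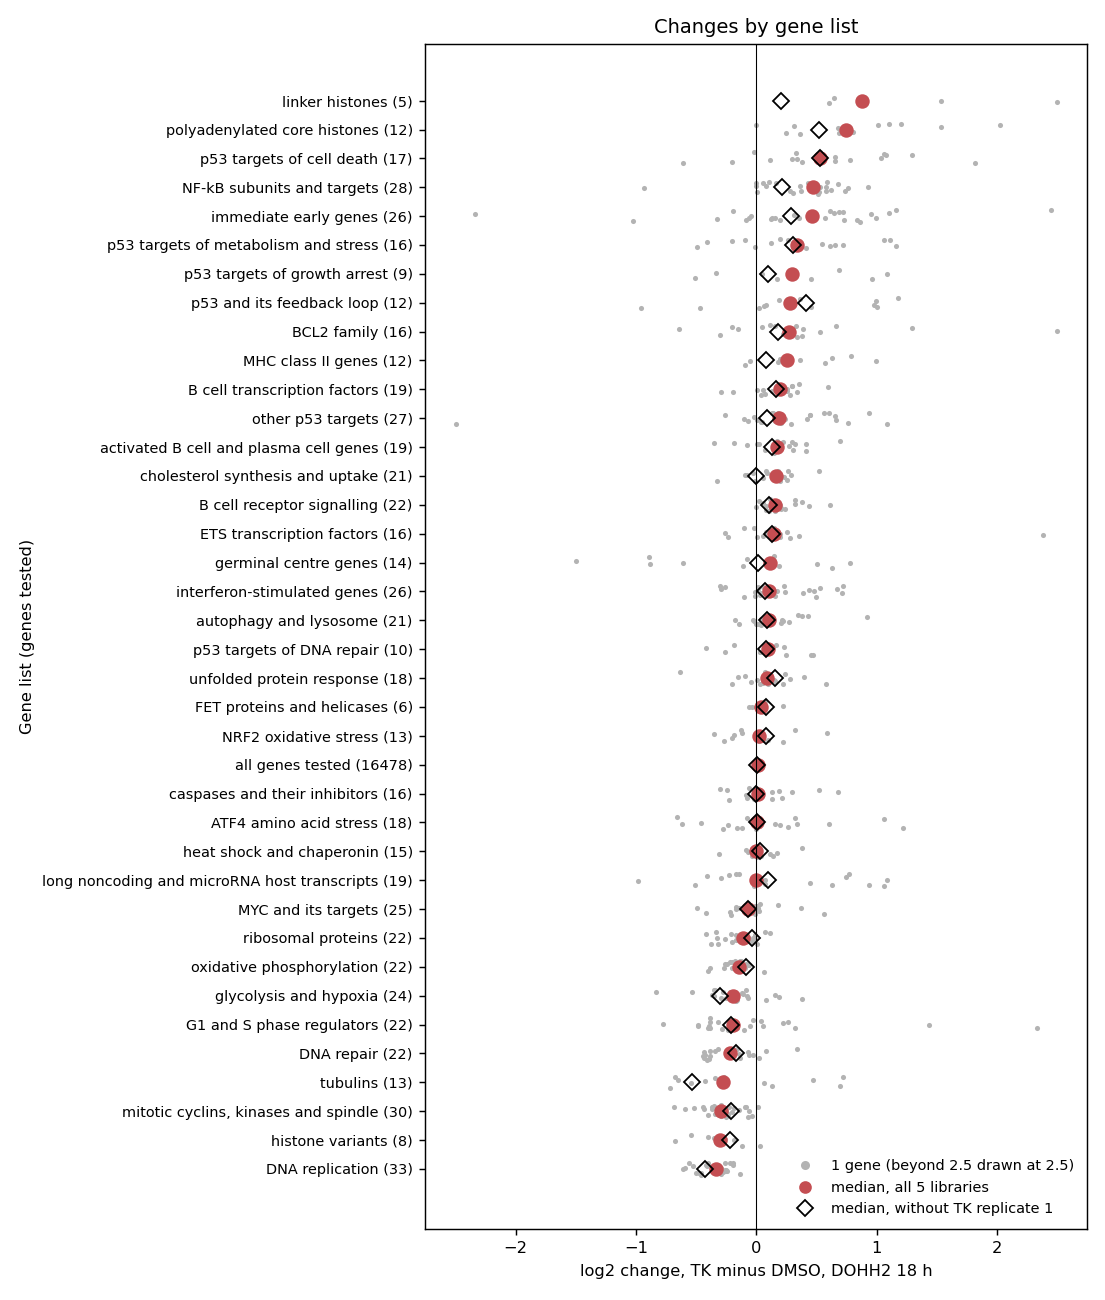
The log2 change with TK (horizontal axis) of each tested gene (grey points) by gene list (vertical axis, with the number of genes tested in parentheses). Red points are the medians over all 5 libraries and open diamonds the medians without TK replicate 1. Medians of the lists drawn run from -0.332 for DNA replication to 0.873 for linker histones, and that of linker histones is 0.202 without TK replicate 1.

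NF-kB subunits and targets, an inflammatory and survival programme of B cells, had positive changes in 25 of 28 genes, with a median of 0.471 (0.214 without TK replicate 1). The groups were apart with TK higher in 14 (50%, against 11.9% of all genes), and none passed the threshold. TNFAIP3, the ubiquitin-editing inhibitor A20, was at 66.5 and 55.1 CPM with DMSO and at 145, 92.2 and 72.3 CPM with TK. ICAM1, an adhesion molecule, was at 100 and 102 CPM against 216, 132 and 117 CPM. BIRC3, an inhibitor of apoptosis, was at 6.16 and 5.34 CPM against 7.71, 11.1 and 8.66 CPM. These values depend on the DMSO libraries of 18 h: the members summed to 1424 and 1461 CPM there and to 1565 to 2501 CPM with TK at 18 h, but to 2298 to 3601 CPM in the 6 DOHH2 libraries of 8 h. With the 8 h DMSO libraries added to the control the median was -0.251, and the log2 changes were -0.15 for TNFAIP3, -0.16 for ICAM1 and -0.14 for BIRC3. MIR3142HG also had a lower mean in the 2 DMSO libraries of 18 h (4.57 ± 0.0385 CPM, SD) than at 8 h. Its mean at 8 h was 7.52 ± 0.558 CPM in the 3 DMSO libraries and 8.01 ± 1.81 CPM in the 3 TK libraries. Unlike the NF-kB median, its log2 change stayed positive with the larger control, at 0.465. The call of MIR3142HG was lost with that control (adjusted p = 0.276 by edgeR). Immediate early genes had a median of 0.463, which was 0.0647 with that larger control and 0.289 without TK replicate 1. JUN, a subunit of AP-1, was at 3.91 and 4.22 CPM with DMSO and at 13.3, 6.51 and 7.58 CPM with TK (log2 change 1.16, adjusted p = 0.264, and 0.397 with the larger control).

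B cell genes had small log2 changes on the whole. Of 22 genes of B cell receptor signalling, 21 had positive changes, with a median of 0.154 (0.0931 with the larger control). Without TK replicate 1, 15 of the 22 were positive, with a median of 0.108. None of these genes passed the threshold. The adaptor BLNK was at 99.8 and 104 CPM with DMSO and at 125, 127 and 130 CPM with TK (log2 change 0.32, adjusted p = 0.481). The 12 genes of MHC class II presentation had a median of 0.251, which was 0.0796 without TK replicate 1 and 0.00913 with the larger control. HLA-DPA1, an alpha chain, was at 109 and 87 CPM against 222, 165 and 198 CPM (log2 change 0.996, adjusted p = 0.317, and 0.0213 with the larger control). CD74, the invariant chain that loads these molecules, was at 2792 and 1859 CPM against 4496, 1811 and 1940 CPM, highest in TK replicate 1, and the groups overlapped. STAP1, an adaptor of B cell receptor signalling, was at 28.4 and 25.6 CPM against 34.3, 40 and 40.3 CPM. ETS transcription factors had a median of 0.143 over 16 genes (0.0844 with the replicate number as a block), the FET proteins and their helicases one of 0.0342 over 6 (0.0065 without DMSO replicate 1), and none of either list passed the threshold. EWSR1, an RNA-binding FET protein, was at 503 and 541 CPM with DMSO and at 674, 556 and 591 CPM with TK (log2 change 0.22, adjusted p = 0.687, and 0.0818 with the larger control).

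Apart from the p53 targets, lists of metabolism and stress held no gene past the threshold with all 5 libraries. Glycolysis had negative changes in 20 of 24 genes (median -0.193, -0.301 without TK replicate 1 and -0.104 with the larger control). Oxidative phosphorylation had them in 21 of 22 (median -0.146), and in 17 of 22 without TK replicate 1 (median -0.0868). Cholesterol synthesis had a median of 0.162, which was -0.00233 without TK replicate 1. ATF4 targets of amino acid stress split evenly, with 9 positive and 9 negative changes (median 0.00789, and -0.121 with the larger control). Among them CHAC1, which degrades glutathione, was at 0.946 and 1.10 CPM with DMSO and at 3.82, 1.74 and 1.67 CPM with TK. PHGDH, the first enzyme of serine synthesis, was at 167 and 165 CPM against 123, 115 and 123 CPM. DDIT3, the stress factor CHOP, was at 8.67 and 8.48 CPM against 12.6, 11.7 and 14.2 CPM. The groups were apart in all 3, and none passed the threshold (adjusted p of 0.252 to 0.282 by edgeR). Heat shock genes had a median of -0.000784 over 15 genes. GABARAPL1, of autophagosome formation, was at 1.04 and 1.27 CPM against 2.40, 2.17 and 2 CPM (log2 change 0.92, adjusted p = 0.224).

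MYC and its targets had a median of -0.0677 over 25 genes, and -0.0198 without DMSO replicate 3. Ribosomal proteins had one of -0.11 over 22 genes, and -0.0387 without TK replicate 1, where 10 of the 22 changes were positive. SRM, a polyamine enzyme and MYC target, was at 435 and 423 CPM with DMSO and at 288, 322 and 301 CPM with TK (log2 change -0.50, adjusted p = 0.309). MXD1, which opposes MYC, was at 5.55 and 6.66 CPM against 7.45, 9.92 and 9.75 CPM. The BCL2 family, which holds both killers and protectors of the mitochondrion, had a median of 0.272 over 16 genes (0.177 without TK replicate 1 or without DMSO replicate 3, and 0.139 with the larger control). Of these, 6 were apart with TK higher (37.5%, against 11.9%). Interferon-stimulated genes had a median of 0.107 over 26 genes (0.0606 without DMSO replicate 3), caspases and their inhibitors one of 0.0153 over 16 (-0.0119 without DMSO replicate 3). No list named in these sentences held a member past the threshold.

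The repeat without TK replicate 1 compared 2 TK libraries (replicates 2 and 3) with 2 DMSO libraries (replicates 1 and 3). Replicate number 1 was then left with DMSO only, so treatment and replicate number cannot be fully told apart there. The repeat called 18 genes (0.109%), 14 higher (0.085%) and 4 lower (0.0243%), of which 11 were among the 12 called with all 5 libraries. HIST1H2BJ dropped out, and SESN2, TIGAR, FAS, RPS27L, UHRF1, PDXP and DNMT1 came in. FAS then rose by 0.82 on the log2 scale (SE 0.136, adjusted p = 0.0146), and TIGAR by 0.79 (SE 0.124, adjusted p = 0.00829). RPS27L, a ribosomal-protein paralogue that p53 induces, was at 51.3 and 64.9 CPM with DMSO and at 50.5, 91.6 and 100 CPM with TK, so that TK replicate 1 alone lay among the DMSO values (log2 change 0.72 without it, adjusted p = 0.0414). Of the 18 genes, 8 are in the p53 lists. UHRF1, which recruits DNA methyltransferase to newly copied DNA, was at 133 and 128 CPM against 111, 71.4 and 74.7 CPM. It fell by 0.84 on the log2 scale without TK replicate 1 (SE 0.121, adjusted p = 0.00388). DNMT1, the methyltransferase that copies methylation marks at replication, was at 401 and 422 CPM against 426, 296 and 292 CPM. It fell by 0.48 without that library (SE 0.0913, adjusted p = 0.0439). With it the groups overlapped (log2 change -0.28, adjusted p = 0.571). With all 5 libraries and the larger control the changes were 0.134 for FAS, 0.362 for TIGAR, 0.314 for RPS27L and 0.989 for SESN2. Those of the falls were -0.388 for UHRF1, -0.0815 for DNMT1 and -0.715 for PDXP. PDXP, a phosphatase of vitamin B6 phosphate, was at 21.5 and 20.4 CPM against 15.3, 11.2 and 10.3 CPM.

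**Figure D4:**
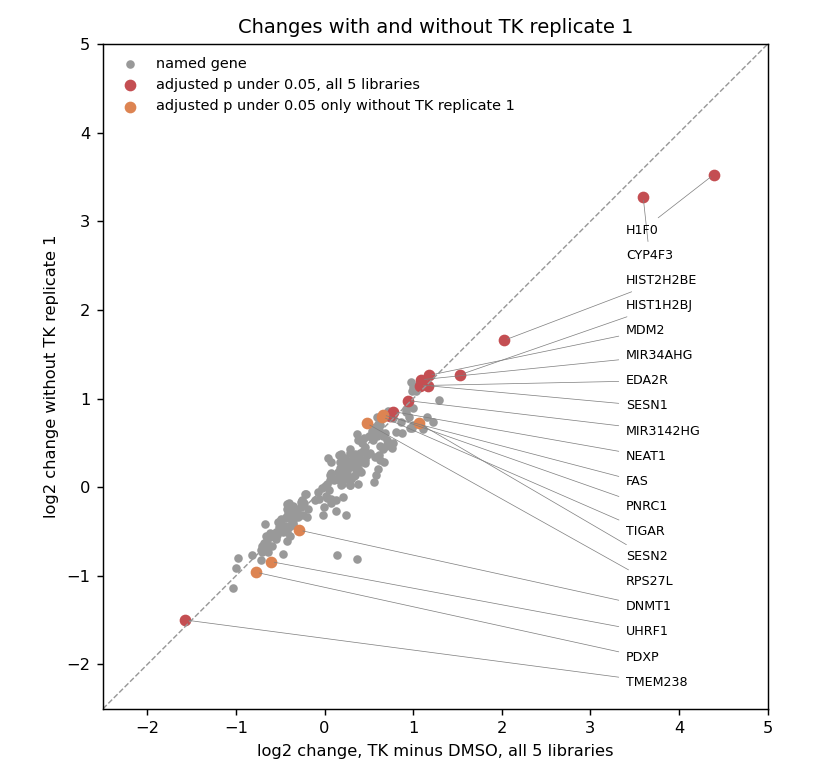
The log2 change without TK replicate 1 (vertical axis) against that with all 5 libraries (horizontal axis) for the named genes with a mean of at least 1 CPM. Red points passed the threshold with all 5 libraries, orange points only without TK replicate 1, and the dashed line marks equal values. H1F0 lies below the line, at 3.52 against 4.39, and UHRF1, PDXP and DNMT1 are more negative without that library.

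At 8 h no gene passed the threshold in DOHH2 (edgeR, 497 genes or 3.02% at an unadjusted p under 0.05). The change at 18 h minus that at 8 h passed the threshold for 2 genes (0.0121%, with 712 genes or 4.32% at an unadjusted p under 0.05), both with their own DMSO libraries at each time. CYP4F3 was at 1.27 ± 0.105 CPM with DMSO and 1.26 ± 0.245 CPM with TK at 8 h (SD, n = 3 each), and its changes differed by 3.62 on the log2 scale (SE 0.534, adjusted p = 0.0408 by edgeR). SESN1 was at 13.6 ± 1.15 CPM and 13.4 ± 0.682 CPM at 8 h, and its changes differed by 1.18 (SE 0.192, adjusted p = 0.0408 by edgeR over all genes). MDM2 was at 187 ± 5.32 CPM with DMSO and 210 ± 20.6 CPM with TK at 8 h, and its difference between the times of 1.005 did not pass (adjusted p = 0.205 by edgeR). H1F0 was at 1.22 ± 0.5 CPM with DMSO and 2.74 ± 0.419 CPM with TK at 8 h, with a difference of 3.20 (adjusted p = 0.337 by edgeR). The count of such genes was 0 without any 1 of the 6 DOHH2 libraries of 8 h, and also 0 without DMSO replicate 1, TK replicate 1 or TK replicate 3 of 18 h.

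**Figure D5:**
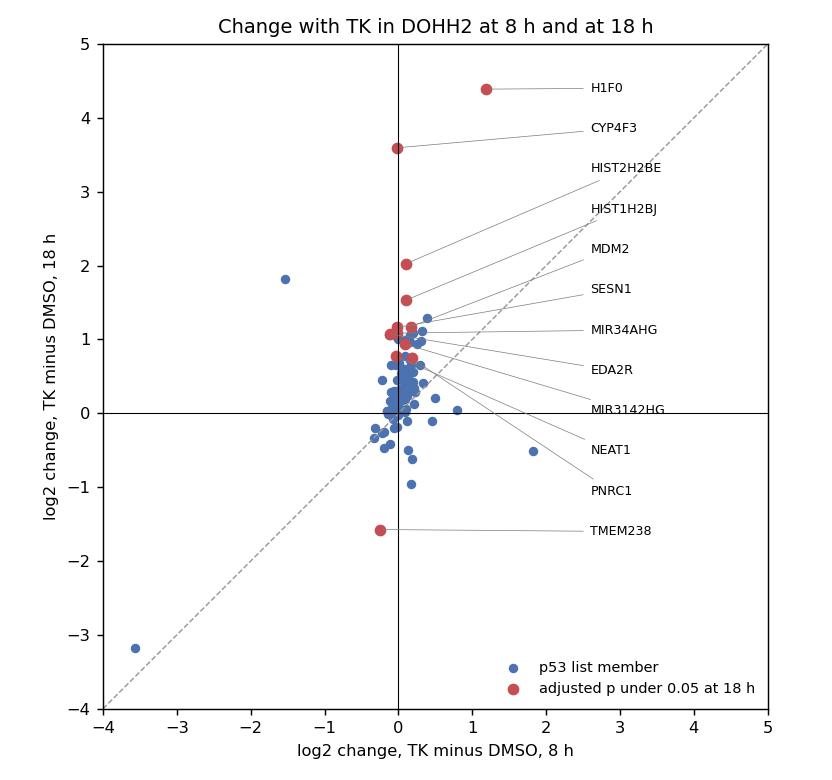
The log2 change with TK at 18 h (vertical axis) against that at 8 h (horizontal axis) in DOHH2, for the tested p53-list genes (blue) and the 12 genes past the threshold at 18 h (red, labelled). The dashed line marks equal values. H1F0 and CYP4F3 lie highest, with changes of 4.39 and 3.59 at 18 h against 1.19 and -0.02 at 8 h.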

How the data were processed

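Reads were aligned with STAR to GRCh38.p10 and counted per gene with HTSeq, per the submitters' processing notes, which give no versions. The deposited values are raw counts for 58288 genes in each library. The 5 summary rows, 36.2 to 37.8% of all counts in 4 of the compared libraries and 62.7% in TK replicate 1, were left out. For the gene models and for the use of strand in counting, nothing is stated. Whether sense and antisense reads of overlapping genes were separated is therefore unknown. Symbols were those deposited with the counts, and positions came from GENCODE v29 (GRCh38), matched by gene identifier.

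All 20 libraries were fitted in R 4.3.3 with edgeR 4.0.16 (8 group coefficients, TMM scaling, robust quasi-likelihood test, Benjamini-Hochberg over all genes kept). Genes needed 0.288 CPM, which equals 10 counts in the median library, in at least 3 libraries. Standard errors came from the F statistic. Groups are apart when all TK values lie on one side of all DMSO values. Replicates were not duplicates: chi-square per degree of freedom between them was 12.4 to 145. The fit was also run on counts simulated from its own means and dispersions. No outlying library was simulated, so that run cannot judge calls affected by TK replicate 1. Alternatives used DESeq2 1.42.0 and limma 3.58.1. Named genes are those past the threshold in any of the 3 contrasts (all libraries, without TK replicate 1, between times), the next 10 each way at 5 CPM or more, p53-list genes, markers, and the 4 smallest p values of each other list. RefSeq windows were matched by gene identifier or else by symbol, and 10 of the 12 genes past the threshold had a window. MicroRNAs were those lying inside the span of the host on its strand. The members and lists were chosen with earlier results of these data known. CXCR5, TUBB2A, MTND2P28, HLA-B and IGLV2-8 were chosen after their values were seen. Results of some genes of these lists are not reported here.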

Additional observations from a re-analysis of the deposited data

Results flagged for a closer look

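The change with TK in DOHH2 differed between 18 h and 8 h in 2 genes by edgeR's test of that difference. For CYP4F3 the difference was 3.62 on the log2 scale, and for SESN1 it was 1.18, both with an adjusted p of 0.0408. The DMSO libraries of the 2 times are separate. The count of 2 genes became 0 when any 1 of the 6 DOHH2 libraries of 8 h was left out. It was also 0 when only the DOHH2 libraries were fitted.

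Reads with several alignments, which lie outside the compared counts per gene, made up 56.6% of the total in TK replicate 1 of 18 h. Their share was between 20.7 and 34.3% in each of the 19 remaining libraries of the series.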

How the results depend on the processing

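The count of 12 genes for TK against DMSO at 18 h (2 for the difference between the times) was 170 (58) with no filter on low counts, 6 (0) with the DOHH2 libraries only, 85 (7) with DESeq2 and 1968 (7) with voom and library quality weights, where TK replicate 1 had a weight of 0.137. With the 8 h DMSO libraries added to the control it was 62, and 0 by edgeR with the 5 libraries only (1094 genes at an unadjusted p under 0.05). The filter at 50 counts left 12 genes (1), and RLE scaling 12 (2). Leaving out 1 library gave 1 to 18 genes (0 to 2): 1 without DMSO 18 h replicate 3, 2 without DMSO 18 h replicate 1, 18 without TK replicate 1, 8 without TK replicate 2 and 9 without TK replicate 3. The cause of these shifts was not tested, other than that fewer libraries or genes entered some fits. With the replicate number as a block, 11 genes passed, 9 of them among the 12, and 4 for the difference. Same-numbered libraries correlated in their deviations across genes at r = 0.0152 and 0.0261 at 18 h and at 0.312, 0.649 and -0.11 at 8 h (replicates 1, 2 and 3). Not every pair exceeded 0.1, so the main fit did not pair libraries by number. The values at 18 h say little, because the deviations of 2 DMSO libraries mirror each other. At 8 h the crossed pairs of replicates 1 and 2 had r of -0.453 and -0.562. On principal component 2 of the DOHH2 libraries, those of replicate 1 scored 6.26 to 8.46, and all others -0.0795 or lower. Whether the replicate numbers mark a batch was not tested.

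Single genes changed sign in 8 of the tests run. With the 8 h DMSO libraries in the control, log2 changes became 0.0174 for CCNB1, -0.154 for TNFAIP3, -0.143 for BIRC3, -0.16 for ICAM1 and -0.508 for TUBB2A. CCNB1 was 0.0443 without DMSO replicate 1, and TUBB2A was -0.0388 without DMSO replicate 3 and -0.142 without TK replicate 1. Leaving out 1 library at a time gave -0.216 to 0.0443 for CCNB1 and -0.142 to 1.18 for TUBB2A. With 2 DMSO libraries, each carries much of the control's spread, and genes under about 1 CPM are limited by few counts.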

Other observations

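Some genes differed widely between libraries of the same treatment. MTND2P28, a nuclear copy of a mitochondrial gene, was at 2.01 and 2.85 CPM with DMSO and at 55.7, 64.6 and 1.90 CPM with TK, so that TK replicate 3 lay with the DMSO libraries. At 8 h its mean was 52.1 CPM with DMSO and 47.2 CPM with TK. HLA-B was at 0.977 and 0.791 CPM with DMSO and at 20.2, 1.16 and 7.29 CPM with TK. The immunoglobulin segment IGLV2-8 was at 3.20 and 3.52 CPM with DMSO and at 0.116, 0.0562 and 2.07 CPM with TK. For HLA-B and IGLV2-8 the TK and DMSO libraries did not overlap, while for MTND2P28 the treatment did not separate them. None of the 3 passed the threshold.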
